A study of Homo sapiens with 4 samples.

Results

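Broad joint clusters are stretches of 4 kb or more in which the pooled H3K9ac regions of both libraries left no gap over 1 kb, with at least 1 region of each. H3K9ac is histone H3 acetylated at lysine 9. The clusters were chosen by position alone. All called regions of both libraries were pooled, regions up to 1 kb apart were joined, and a joined cluster was kept when it spanned at least 4000 bp and held regions of each library. Pooling gave 18106 clusters, of which 10454 held regions of both libraries, and 464 of these reached 4 kb. The 9990 shorter ones are called the other joint clusters. Both libraries came from the human glioblastoma line T98G, an established cell line used at passage 4, carrying a lentiviral shRNA against RBBP4 (shRBBP4) or a lentiviral control shRNA named NT (shNT). Each shRNA was represented by 1 ChIP-seq library made with the same H3K9ac antibody, so no value below has a replicate check. The input DNA libraries and the level of RBBP4 were not analysed here. Since span and membership come from the called regions, all values are descriptions of these 2 libraries, with no test.

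H3K9ac is placed by acetyltransferases such as GCN5 and PCAF and removed by histone deacetylases, and at most active genes it forms a short domain around the transcription start. Domains of active marks that run on for several kilobases are known from highly transcribed genes and from genes that define a cell type. RBBP4 binds histones and is a shared subunit of complexes that include the deacetylase complexes NuRD and SIN3, Polycomb repressive complex PRC2 and the chromatin assembly factor CAF-1. Which genes lie under the clusters was not analysed here, and clusters are named by hg19 position, with starts counted from 1.

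The broad clusters were a small part of the joint clusters and held a larger part of the strong and wide regions. They made up 4.44% of the joint clusters. They contained 3419 of 39303 shRBBP4 regions (8.70%) and 2819 of 26828 shNT regions (10.5%). They contained 12.1% of the covered length of the shRBBP4 list and 13.3% of that of the shNT list. Regions were ranked by the authors' score within their own list, so that percentile 90 stands above 90% of that list. Of the regions above percentile 90, 14.3% lay in broad clusters in shRBBP4 and 15.6% in shNT. Of the regions wider than 1 kb, 277 of 1030 lay in broad clusters in shRBBP4 and 166 of 575 in shNT. Wide regions make wide clusters, and long clusters hold more regions and more length, so part of each share is built in. By length, the broad clusters held 1667 of the 12204 kb covered by either library in all joint clusters. The 4.44% is a share of joint clusters, whereas the later shares are of whole lists, which include regions outside joint clusters.

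Broad clusters that held regions of 1 library only were few. The 5 of them were all of shRBBP4, with 5 to 9 regions each, and shNT had 0. Joint clusters of any span held 30251 of 39303 shRBBP4 regions and 25297 of 26828 shNT regions. Most regions in clusters of 1 library were thus of shRBBP4 at any span, and nothing is read from the count of 5 against 0. The widest, of 5880 bp, was that on chromosome 5 from 148782889 to 148788768. Next to it stood 4 shorter ones, on chromosome 1 from 16477640 to 16482866, on chromosome 3 from 98700050 to 98704215 and from 134044448 to 134048749, and on chromosome 19 from 23729907 to 23734043.

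Most broad clusters were only a little over the limit. Their median span was 4887 bp, and 252 of 464 spanned less than 5 kb. A further 103 spanned 5 to 6 kb, 73 spanned 6 to 8 kb, 21 spanned 8 to 10 kb and 15 spanned 10 kb or more. Together they spanned 2534 kb, of which 1667 kb was covered by a region of either library. The 3 clusters nearest to the limit from above all spanned 4000 bp, on chromosome 1 from 244996622, on chromosome 5 from 162885444 and on chromosome 19 from 49466544. Their fills, the covered length over the span, were 88.0%, 84.9% and 70.9% with both libraries together. The 3 nearest from below spanned 3998, 3996 and 3992 bp and had fills of 45.9%, 56.0% and 63.5%. They lay on chromosome 1 from 243416146, on chromosome 19 from 54703988 and on chromosome 2 from 48130427.

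One cluster stood far beyond the rest in length. It spanned 32526 bp on chromosome 22 from 46450421 to 46482946, against 11853 bp for the next. In shRBBP4 its regions covered 84.9% of the span and in shNT 70.5%. The cluster was not 1 continuous block in either library. The widest single region in it measured 4064 bp in shRBBP4, from 46459943 to 46464006, and 4108 bp in shNT, from 46476281 to 46480388. The widest gap free of regions of both libraries was 571 bp, from 46467469 to 46468039. The best-scoring region lay just after that gap in both libraries, from 46468040 to 46470580 at percentile 99.5 in shRBBP4 and from 46468162 to 46469605 at percentile 98.9 in shNT. One stretch where the libraries differed was the shRBBP4 region from 46458005 to 46459853, of 1849 bp, inside which shNT had a region of 347 bp from 46458232 to 46458578.

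The next 9 clusters in width were between 10508 and 11853 bp and lay on 7 chromosomes. That on chromosome 12 from 12868660 to 12880512 was covered to 53.0% in shRBBP4 and 57.5% in shNT, by 16 and 15 regions. That on chromosome 5 from 92914613 to 92926253 was covered to 53.7% in shRBBP4 and 61.9% in shNT, by 10 regions each. These 2 were the only ones of the 10 widest with more covered length in shNT. A cluster on chromosome 20 from 45978802 to 45990377 leaned the other way, with 14 regions covering 78.8% in shRBBP4 and 19 regions covering 53.2% in shNT. On chromosome 1 from 234738884 to 234749649, fill was 57.5% in shRBBP4 and 33.2% in shNT. The remaining 5 lay on chromosome 11 from 65186749 to 65198231, chromosome 5 from 43033437 to 43044466, chromosome 3 from 145873977 to 145884877 and chromosome 17 from 48132539 to 48143083 and from 57913932 to 57924439. Their ratios of covered length, shRBBP4 over shNT, were between 1.14 and 1.35.

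**Figure D1:**
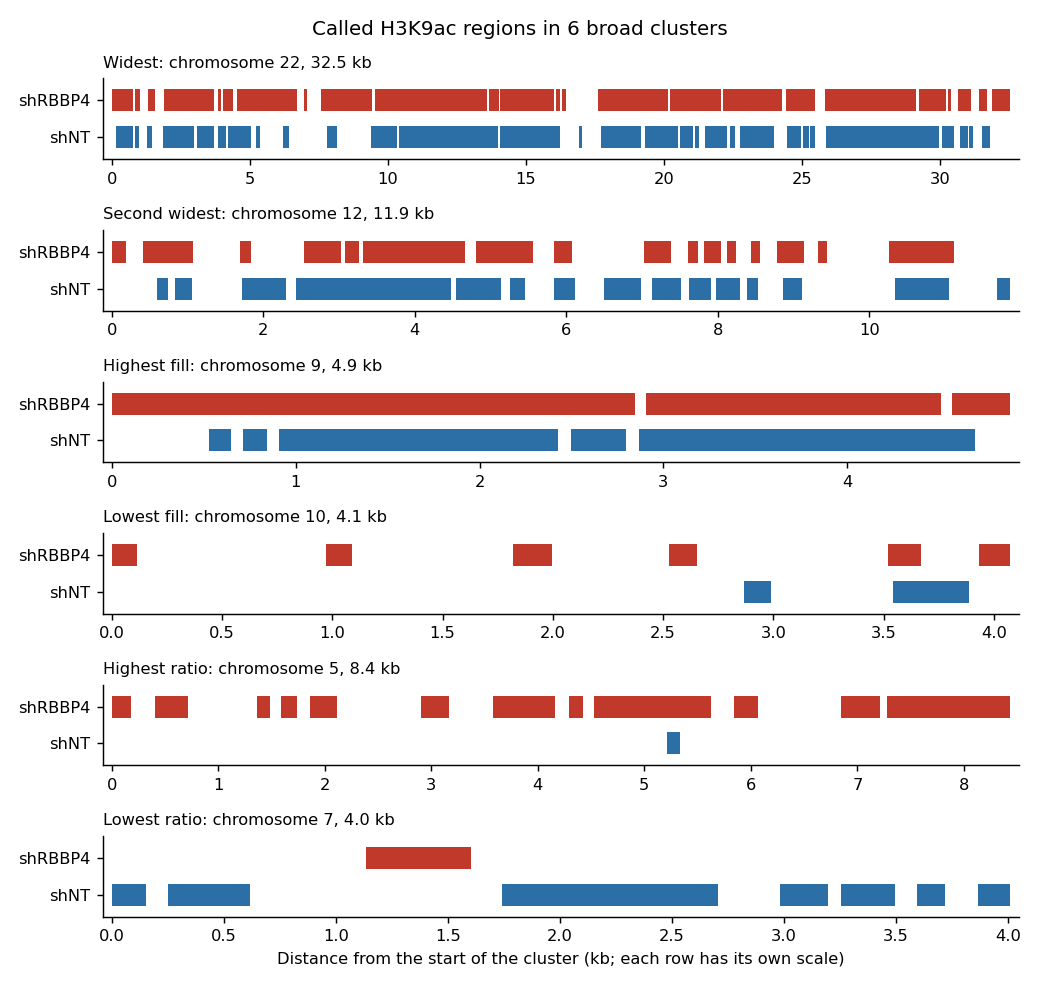
Called H3K9ac regions of 6 broad clusters, drawn as bars from the start of each cluster (x axis, kb, own scale per row), with shRBBP4 above and shNT below. The 32.5 kb cluster on chromosome 22 is filled by many regions in both libraries, whereas the cluster with the highest ratio has 12 regions in shRBBP4 and 1 in shNT, and that with the lowest ratio 1 in shRBBP4 and 7 in shNT.

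Broad clusters were found on all 22 autosomes and on chromosome X, in unequal shares. On chromosome 20, 36 of 379 joint clusters were broad (9.50%, exact 95% interval 6.74 to 12.9), against 4.25% on all other chromosomes together. Chromosome 5 had the most broad clusters, 48 of 628 (7.64%, 5.69 to 10.0), and chromosome 11 had 37 of 577 (6.41%, 4.55 to 8.73). Chromosomes 5, 2, 1, 11, 20 and 17 had more than 30 each. The lowest shares were on chromosome X, with 1 of 169 (0.592%, 0.0150 to 3.25), and chromosome 9, with 5 of 366 (1.37%, 0.445 to 3.16). Chromosome 13 had 3 of 166 and chromosome 10 had 8 of 385. The intervals treat clusters as independent, which clusters along a chromosome need not be.

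**Figure D2:**
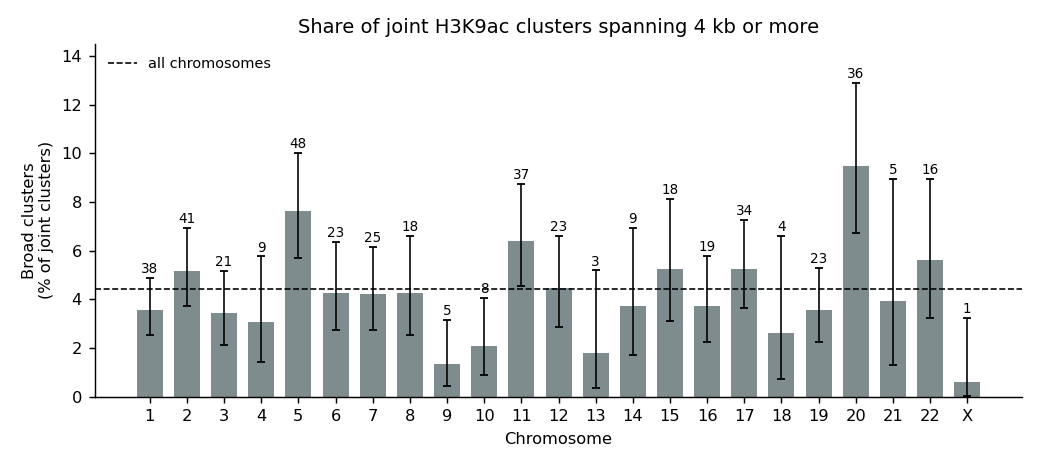
Broad clusters as a percentage of joint clusters (bars, y axis) on each chromosome (x axis), with exact 95% binomial intervals, the number of broad clusters above each bar and the share over all chromosomes as a dashed line at 4.44%. Chromosome 20 is highest at 9.50%, and chromosome X is lowest with 1 broad cluster.

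Fill was higher in shRBBP4 than in shNT in most broad clusters. The median fill was 55.9% in shRBBP4 and 41.1% in shNT, and 66.6% with both libraries together. When only the best-scoring shRBBP4 regions were kept, as many as shNT has, the median fill was 54.7% in shRBBP4 and 49.7% in shNT. The 10th and 90th percentiles of fill were 36.7% and 75.3% in shRBBP4, against 17.6% and 64.2% in shNT. Fill was higher in shRBBP4 in 377 of 464 clusters (81.2%), against 71.5% of the other joint clusters. The other joint clusters had similar medians in each library, 58.3% in shRBBP4 and 43.3% in shNT. With both libraries together their median was higher, 72.8% against 66.6%. A fill of 80% or more with both together was found in 12.9% of broad and 37.0% of other joint clusters. Across the 464 clusters, fill in shRBBP4 and fill in shNT had a Spearman correlation of 0.44. Both fills share 1 span per cluster, and this is a description across clusters, not replicates. Fill did not follow span (Spearman correlation -0.02 over the same clusters), and the 15 clusters of 10 kb or more had a median fill of 70.4%, against 65.9% in those under 5 kb.

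Fill with both libraries together ranged from 28.7% to 99.5%. The densest lay on chromosome 9 from 21554725 to 21559607, where 3 shRBBP4 regions covered 97.5% of the span and 5 shNT regions covered 79.8%. Its widest gap free of both was 25 bp long. The next, on chromosome 20 from 52204707 to 52209919, was covered to 91.3% in shRBBP4 and 84.3% in shNT. A cluster on chromosome 7 from 92323574 to 92328885 was covered to 93.3% in shRBBP4 and 51.9% in shNT, and one on chromosome 15 from 56204918 to 56209591 to 92.9% and 37.4%. The fifth, on chromosome 2 from 223915877 to 223920014, was covered to 84.2% in shRBBP4 and 61.3% in shNT. The sparsest was on chromosome 10 from 99443905 to 99447975, with a fill of 28.7% for both together. It was made of 6 shRBBP4 regions, each of 177 bp or less, and 2 shNT regions, and its widest gap was 857 bp. The other 4 of the 5 sparsest lay on chromosome 20 from 48599585 to 48604165, chromosome 14 from 77491339 to 77495834 and chromosome 12 from 92533895 to 92540441 and from 48210895 to 48215111, with fills of 29.6% to 34.4%. In these 5 sparsest clusters, shRBBP4 contributed 6 or 7 regions and shNT 1 to 4.

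**Figure D3:**
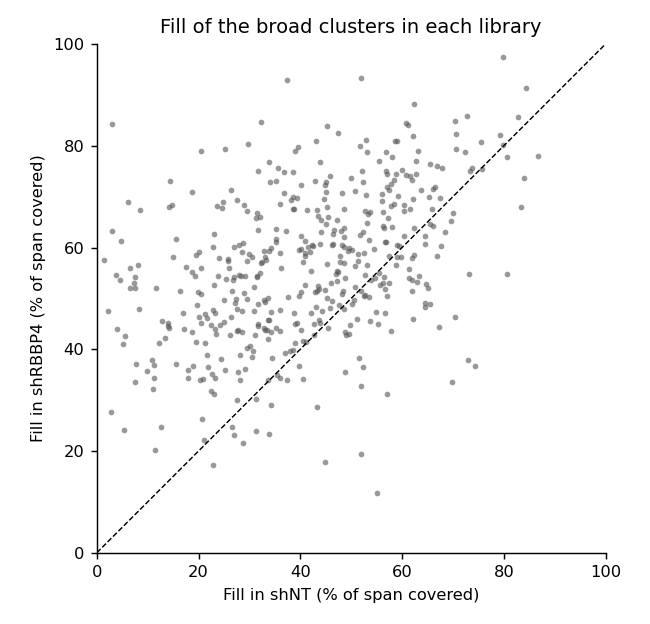
Fill of each of the 464 broad clusters, the percentage of the span covered by regions of that library, in shRBBP4 (y axis) against shNT (x axis), with a dashed line at equal fill. Most points (377) lie above the line, and a group at the left edge has almost no covered length in shNT.

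The typical broad cluster was a chain of several regions. The median number was 7 in shRBBP4 and 6 in shNT, with ranges of 1 to 24 and 1 to 29. Both maxima belong to the cluster on chromosome 22. Overlapping regions of both libraries joined into a median of 7 separate blocks per cluster, and the widest gap between blocks had a median of 651 bp. A single region of either library covered 50% or more of the span in 13 of 464 clusters, against 2958 of 9990 other joint clusters. Much of this contrast follows from the span limit. In a broad cluster such a region must measure at least 2 kb, whereas the other joint clusters had a median span of 1440 bp. In shRBBP4 the median width of the widest region of a broad cluster was 954 bp, and in shNT it was 737 bp. Regions over 2 kb were found in 46 broad clusters in shRBBP4 (9.91%) and 27 in shNT (5.82%), against 13 and 3 of 9990 other joint clusters. The span limit favours such regions in broad clusters too. In shRBBP4 the widest was the region of 6252 bp in a cluster of 9222 bp on chromosome 5 from 57749124 to 57758345, where the widest shNT region measured 2479 bp. In shNT it was the region of 4576 bp in a cluster of 10237 bp on chromosome 11 from 65263724 to 65273960, where the widest shRBBP4 region measured 3421 bp. shRBBP4 had more regions than shNT in 280 broad clusters (60.3%), fewer in 122 (26.3%) and the same number in 62 (13.4%). In the other joint clusters these shares were 44.3%, 20.8% and 34.9%, so more regions in shRBBP4 than fewer was also the rule there. More regions did not always mean more coverage. The cluster on chromosome 20 from 45978802 had fewer regions in shRBBP4 (14) than in shNT (19), and they covered 9121 bp in shRBBP4 and 6158 bp in shNT.

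The 4 kb span was reached by the shRBBP4 regions more often than by the shNT regions. From the first to the last region of the library, shRBBP4 spanned 4 kb or more in 383 of 464 clusters and shNT in 256, with 203 clusters in common. The shRBBP4 regions reached both ends of the cluster in 231 clusters (49.8%) and the shNT regions in 57 (12.3%). In the other joint clusters these shares were 38.8% and 13.9%, so the lean to shRBBP4 was found there too. The shRBBP4 list is the longer one, with 39303 regions against 26828, and the counts of this paragraph were not repeated with lists of equal length. When the regions of 1 library were joined on their own across gaps of up to 1 kb, a stretch of 4 kb or more was left in 332 clusters in shRBBP4 and in 166 in shNT. It was left in both libraries in 121 clusters, in shRBBP4 alone in 211, in shNT alone in 45 and in neither in 87. The last 87 were thus broad only when both lists were pooled.

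Within broad clusters most shNT coverage was also shRBBP4 coverage. Of the shRBBP4 covered length, 57.3% was shared, and of the shNT covered length 78.1% was. In the other joint clusters these shares were 54.1% and 71.2%. The broad clusters held 614 kb covered in shRBBP4 alone and 231 kb covered in shNT alone. In 3 clusters no base was shared. These were the cluster on chromosome 7 from 20369533 to 20373538, the sparse one on chromosome 14 from 77491339 and the sparse one on chromosome 20 from 48599585.

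Summed over all broad clusters, regions covered 1436 kb in shRBBP4 and 1053 kb in shNT, a ratio of 1.36. The ratio was 1.32 in the other joint clusters and 1.51 over the whole lists, which also hold clusters of 1 library only. The median ratio of a broad cluster was 1.34 (95% interval of the median 1.27 to 1.40, over clusters), against 1.33 in the other joint clusters. A ratio of at least 1.5 in favour of shRBBP4 was found in 184 of 464 broad clusters, 39.7%, beside 41.5% of all joint clusters. A ratio of 1.5 or more in favour of shNT was found in 11 broad clusters, 2.37%, beside 9.15% of all joint clusters. With lists of equal length, 78 of 327 broad clusters were at least 1.5-fold higher in shRBBP4 and 28 at least 1.5-fold lower. The shares over all joint clusters were not computed with these lists, so these 2 counts have nothing beside them. Ratios of short clusters rest on fewer bases and spread more widely. The same regions chose the clusters, so nothing is read from these shares. How many reads lie behind each list is unknown, and no ratio could be set against it. The 184 clusters with the higher ratio had a median of 7 regions in shRBBP4 and 5 in shNT, and a median fill of 56.0% in shRBBP4 and 25.9% in shNT. In the 269 clusters within 1.5-fold, fill was 56.7% in shRBBP4 and 51.4% in shNT. The median fill in shRBBP4 was thus nearly the same in these 2 classes, and that in shNT was not. The classes were formed on this ratio.

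The clusters with the highest ratios had 1 or 2 short shNT regions within or beside a stretch of shRBBP4 regions. On chromosome 5 from 83674074 to 83682501, 12 shRBBP4 regions covered 4847 bp and 1 shNT region covered 123 bp. The best shRBBP4 region there stood at percentile 89.3 and the shNT region at percentile 3.45. On chromosome 15 from 33356586 to 33361012, 6 shRBBP4 regions covered 3728 bp and 1 shNT region 131 bp. A neighbour on the same chromosome from 33158862 to 33164521, not among the 5 highest, had 10 shRBBP4 regions covering 3033 bp and 1 shNT region covering 256 bp. The others of the 5 highest were on chromosome 14 from 62026696 to 62032610, with 2813 bp in shRBBP4 and 129 bp in shNT, and on chromosome 5 from 169403298 to 169407436, with 2618 and 123 bp. The fifth lay on chromosome 4 from 177708775 to 177715202, with 3515 bp in shRBBP4 and 246 bp in shNT. With 123 to 246 bp in shNT in the 5 highest, the size of their ratios depends on very few bases.

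Of the 11 clusters with a ratio of 1.5 or more in favour of shNT, 4 lay on chromosome 7, 3 on chromosome 8, 2 on chromosome 15 and 1 each on chromosomes 1 and 2. On chromosome 7 from 20369533 to 20373538, 1 shRBBP4 region covered 470 bp and 7 shNT regions covered 2208 bp. This shRBBP4 region filled a gap between shNT regions and overlapped none of them. On chromosome 7 from 47616784 to 47621676, 953 bp were covered in shRBBP4 and 2537 bp in shNT. On chromosome 15 from 96878182 to 96884764, these lengths were 1170 bp in shRBBP4 and 2951 bp in shNT, and the best region stood at percentile 59.7 in shRBBP4 and 93.2 in shNT. On chromosome 8 from 119960272 to 119964817, 1530 bp were covered in shRBBP4 and 3174 bp in shNT, although the best region stood at percentile 96.9 in shRBBP4 and 92.4 in shNT. On chromosome 7 from 36429578 to 36434108, 7 shRBBP4 regions covered 1664 bp and 5 shNT regions covered 3368 bp. Over these 11, the median fill was 32.7% in shRBBP4 and 57.1% in shNT.

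The best-scoring region of a cluster had a median percentile of 94.2 in shRBBP4 and 91.1 in shNT, against 78.0 and 67.8 in the other joint clusters. It stood above percentile 90 in 310 clusters in shRBBP4, in 257 in shNT and in both in 220 (47.4%), whereas this was so in both for 12.9% of the other joint clusters. A cluster with more regions has more chances to hold a strong one. Among clusters with 12 or 13 regions of both libraries, 116 broad ones had median best percentiles of 94.8 in shRBBP4 and 92.7 in shNT, and 79 other joint clusters had 91.5 and 90.3. With 8 or 9 regions, 53 broad clusters had 94.2 and 90.3, and 1068 others had 88.8 and 84.8. With 6 or 7 regions the sets lay further apart, with 97.6 and 96.4 in 13 broad clusters and 85.9 and 79.8 in 1999 others. With 10 or 11 regions, 99 broad clusters had 93.3 and 90.3, and 378 others had 91.2 and 87.8. Only the number of regions was matched here. At a like number, the span limit favours clusters with wider regions. With 6 or 7 regions the median fill was 68.5% in broad and 68.7% in other joint clusters, over longer spans in the broad ones. The remaining differences are therefore not read as a trait of broad clusters. The median percentile of all regions in broad clusters was 57.1 in shRBBP4, the same value as in the other joint clusters, and in shNT it was 55.2 against 51.2.

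**Figure D4:**
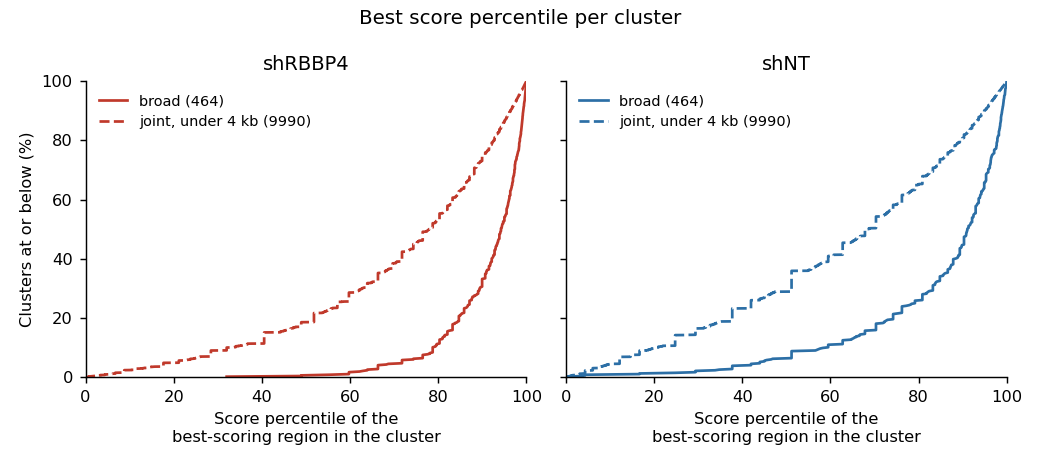
Cumulative share of clusters (y axis, %) by the score percentile of their best-scoring region (x axis), in shRBBP4 (left) and shNT (right), for broad clusters (solid line) and other joint clusters (dashed line). The broad clusters have medians of 94.2 in shRBBP4 and 91.1 in shNT, against 78.0 and 67.8 in the other joint clusters.

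The best-scoring regions of both libraries overlapped in 271 of 464 broad clusters (58.4%), against 63.5% of the other joint clusters. In the other 193, their centres lay a median of 1353 bp apart. The best region lay in the central part, from 33.3% to 66.7% of the span, in 215 clusters in shRBBP4 and 208 in shNT. These were 46.3% and 44.8% of the broad clusters, against 38.0% and 37.7% of the other joint clusters. The best region was also the widest of its library in 218 clusters in shRBBP4 (47.0%) and 232 in shNT (50%). In the other joint clusters these shares were higher, 66.2% in shRBBP4 and 72.3% in shNT. Part of this contrast is built in, since a single region of a library is both best and widest. Only 1 region was held by 23.2% of the other joint clusters in shRBBP4 and 37.0% in shNT, against 0.216% and 1.94% of broad ones. The strongest pair was on chromosome 1 from 87378095 to 87382166, where narrow regions of 190 bp in shRBBP4, from 87379816 to 87380005, and 201 bp in shNT, from 87379811 to 87380011, stood at percentiles 99.97 and 99.96. The lowest-scoring region of the same cluster stood at percentile 2.35 in shRBBP4 and 16.7 in shNT. The next 4 by the lower of both percentiles lay on chromosome 8 from 67973253, chromosome 5 from 6631631, chromosome 20 from 34328031 and chromosome 22 from 41250163, all with a lower percentile of 99.86 or more. These 5 clusters spanned 4072 to 4870 bp, so none was among the widest. At the other end, 31 clusters (6.68%) had a best region below percentile 50 in at least 1 library, against 36.9% of the other joint clusters. In the 31, that library was shRBBP4 in 3 and shNT in 29, with 1 cluster counted in both. This split was not computed for the other joint clusters, so nothing is read from it. The lowest best percentile in shNT was 0.526, on chromosome 20 from 9047996 to 9053063, where shRBBP4 had 10 regions and a best percentile of 97.1.

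The ratio of covered length varied by chromosome in the broad clusters much as in the other joint clusters. On chromosome 14 the 9 broad clusters together covered 27.6 kb in shRBBP4 and 9.91 kb in shNT, a ratio of 2.79, against 1.85 in its other joint clusters. All 9 leaned to shRBBP4, with ratios between 1.41 and 21.8. The widest of them, from 62161230 to 62170143, had 7161 bp covered in shRBBP4 and 2646 bp in shNT, and without it the chromosome's ratio was 2.82. Chromosome 10 had a ratio of 1.92, with 8 of 8 clusters leaning to shRBBP4, and chromosome 19 had 1.86, with 23 of 23. Chromosome 20 had 117 kb covered in shRBBP4 and 70.9 kb in shNT, a ratio of 1.66, with 35 of 36 leaning to shRBBP4. Chromosome 7 had 73.3 kb in shRBBP4 and 74.1 kb in shNT, a ratio of 0.989, with 11 of 25 leaning to shRBBP4. Chromosome 16 had a ratio of 1.03, with 10 of 19, and chromosome 8 of 1.05, with 11 of 18. Chromosomes 7, 8 and 16 held 62 of the 464 broad clusters but 30 of the 87 with more covered length in shNT. These chromosomes were picked after their ratios were seen. Their other joint clusters had ratios of 0.960, 0.994 and 1.07, in the same order. On chromosomes 10, 19 and 20 the other joint clusters had ratios of 1.69, 1.52 and 1.57. The summed ratio was above 1 on 21 of 23 chromosomes, and the exceptions were chromosomes 7 and 13, the second with 3 clusters. Chromosome X was among the 21 through 1 broad cluster with a ratio of 1.81, whereas its other joint clusters had 0.974. In the other joint clusters the summed ratio was below 1 on chromosomes 7, 8, 13 and X. Without its widest broad cluster, chromosome 7 had a ratio of 1.005 and chromosome 13 of 1.04, so both sums lie near 1. The median ratios of their broad clusters were below 1, at 0.960 on chromosome 7 and 0.917 on chromosome 13. Their other joint clusters had summed ratios of 0.960 and 0.891. Over the 20 chromosomes with at least 5 broad clusters, the ratio in broad and in other joint clusters had a Spearman correlation of 0.86. Both sets come from the same 2 libraries and share their depth, so this is a description. Whether DNA content by chromosome plays a part was not tested.

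**Figure D5:**
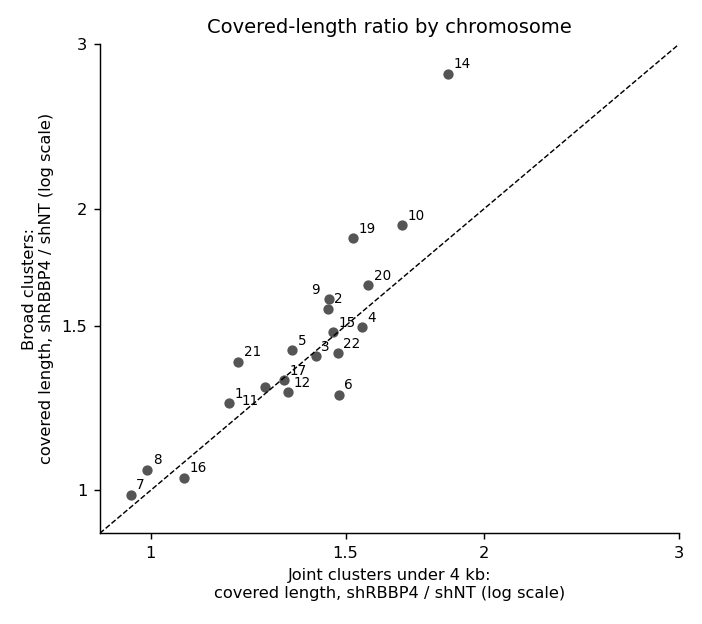
Covered length in shRBBP4 over that in shNT (both axes, log scale), summed over the broad clusters (y axis) and the other joint clusters (x axis) of each of 20 chromosomes with at least 5 broad clusters, labelled by chromosome, with a dashed line at equality. Chromosome 14 stands highest, at 2.79 in broad and 1.85 in other joint clusters, and chromosome 7 lowest, at 0.989 and 0.960.

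Some broad clusters lay close together. The median distance to the nearest other broad cluster was 804 kb, but 89 of 464 (19.2%) lay within 100 kb of another, in 37 groups. This distance was chosen after the values were seen. The spacing of joint clusters in general was not computed, so the 89 have nothing beside them and nothing is read from that count. The largest group was on chromosome 6 from 26025291 to 26275316, with 6 broad clusters in 250 kb. They covered 21.4 kb in shRBBP4 and 19.6 kb in shNT, a ratio of 1.09, and single ratios were between 0.871 and 1.43. On chromosome 11, 4 clusters lay between 65186749 and 65273960 and 4 more between 65623878 and 65688413. The first group had a ratio of 1.31 and held 2 of unlike fill, 90.6% from 65263724 to 65273960 and 47.9% from 65255465 to 65262379, which stood 1344 bp apart. The second group had a ratio of 1.49. On chromosome 5, 4 clusters between 42988325 and 43068883 had fills of 76.5% to 89.6% and ratios of 1.19 to 1.41. The 3 clusters between 57782716 and 57924439 on chromosome 17 had a ratio of 1.12, and 3 on chromosome 20 between 45943500 and 45990377 had 1.77. On chromosome 5 from 14144148 to 14270137 the single ratios of 3 clusters ran from 1.03 to 8.02.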

How the data were processed

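Analysis started from the deposited list of called H3K9ac regions of each of 2 libraries. Each library has its own list. Its track line holds macs2 and PE, per the file headers. SICER, Picard, BWA and bcl2fastq 2.15.0 are listed beside hg19 and GRCh37, per the submitters' processing notes, which give no roles, so which caller made the lists is not settled. For the calling threshold and any use of input, nothing is given in the sources used here. Column 5 is the authors' score per region, of unstated scale, used only for ranks within a list, with tied scores given their mean rank. The BED starts and ends of the deposited files were taken as other numeric values and printed counting from 1. Depth per sample is unknown.

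The members, lists and named clusters were chosen with earlier results of these data known. Named are the 10 widest clusters, the 5 highest and 5 lowest by fill and by covered-length ratio, the 5 best by the lower of both best percentiles, and the 3 on either side of the span limit. Others in the text were named after their values were seen. Covered length counts each base once per library. Shares have exact Clopper-Pearson intervals and medians exact order-statistic intervals, both at 95%, covering counting error only. With 1 library per group there is no p-value. Merging and coverage were checked on simulated lists. Alternatives were other gaps, spans, score limits, equal lists and ranks by width. Genes and sequence were not used, since the reference tables at hand are on another assembly. Scripts ran in Python 3.11.15 with scipy 1.17.1, pandas 2.3.3, numpy 2.4.6 and, for plots, matplotlib 3.10.9.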

Additional observations from a re-analysis of the deposited data

How the results depend on the processing

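No paired analysis was possible because a group holds a single library, and for that reason no library could be left out. The number of broad clusters follows the limits by construction. Higher and lower calls under the alternatives were counted over broad clusters only, with no share over all joint clusters beside them. With a gap of 0.5 kb there were 198 (1.72% of joint clusters), with a median fill of 78.8%, a median covered-length ratio of 1.26, and 63 clusters at least 1.5-fold higher and 4 at least 1.5-fold lower in shRBBP4. With a gap of 2 kb these were 771 (7.63%), 54.5%, 1.44, 357 and 22. A span of 3 kb gave 1277 clusters (12.2%), 478 of them higher and 43 lower, and a span of 5 kb gave 212 (2.03%), 92 higher and 4 lower. The higher-scoring 50% of each list gave 152 (2.29%), a fill of 74.9%, 65 higher and 6 lower. In lists of equal length, where only the shRBBP4 list was shortened, 327 clusters were broad (3.41% of joint clusters), with a fill of 69.3%, a median ratio of 1.11, 78 higher and 28 lower, and 326 of the 464 overlapped one of them. The size of the shRBBP4 excess thus changed with list length. After seeing the data, clusters were restricted to those in which each library alone reached 4 kb. This left 121 (1.16%), with a fill of 74.4%, a median ratio of 1.17, 17 higher and 1 lower. Requiring at least 2 regions of each library, also chosen after seeing the data, left 454 and moved none of the 14 results beyond its interval or by over 1.5 times. The median ratio stayed above 1 in all 8 alternatives that gave one, and summed coverage was higher in shRBBP4 on 18 to 22 chromosomes. Unknown depth limits every comparison of covered length.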
